A study of Rattus norvegicus with 156 samples.

Results

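The cytosolic ribosomal protein genes were followed through the nervous system of rats with ligated spinal nerves. They were taken as every probe set annotated to a single gene whose symbol begins with Rpl or Rps and a digit, or is Rplp0, Rplp1 or Rpsa, without the Rps6k kinases. The rule uses names only, and no measured value. It found 103 of 26379 probe sets (63 on array A, 17 on B and 23 on C), which stand for 61 of 10969 named genes, 39 with names of the large and 22 with names of the small subunit. Of these genes, 34 had 1 probe set, 14 had 2, 11 had 3 and 2 had 4. A further 52 probe sets name a ribosomal protein gene together with other genes and were left out by the rule.

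A ribosome is built from a small (40S) and a large (60S) subunit, each of ribosomal RNA and many proteins, most of them encoded by 1 expressed gene that has numerous processed pseudogenes. Messenger RNAs of nearly all these proteins begin with a C followed by a run of pyrimidines (the 5′ terminal oligopyrimidine, or TOP, motif), through which mTOR and its effector Larp1 control their translation together. In sensory neurons ribosomes are abundant in the cell body, where they form Nissl substance, and some are carried into axons. Near-identical copies mean that a probe set can read several loci, so the source locus is uncertain for every member.

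Rats were naive, had sham surgery in which the spinal nerves were exposed, or had the L5 and L6 spinal nerves ligated (SNL), a model of neuropathic pain selected for a lowered paw withdrawal threshold. Naive and SNL rats received either vehicle or gabapentin (GPN), a drug against neuropathic pain, at 100 mg/kg daily for 7 days, and sham rats received vehicle. Tissue was taken 19 to 21 days after surgery from dorsal root ganglia (DRG) L4, L5 and L6, sciatic nerve and hemisected spinal cord of both sides, and whole brain. Each of the 52 samples was 1 RNA pool of 4 to 6 rats, hybridised to 3 Affymetrix rat U34 arrays. The pools are named by surgery, with GPN added where the drug was given, and the 11 combinations of tissue and side are called compartments. The labels used here name no strain, sex or age. Each treatment had at most 1 pool in a compartment, and naive contralateral L6 DRG, naive GPN contralateral L5 DRG and SNL contralateral nerve were not analysed here. In the compartments tested, 2 ligated pools were set against 2 or 3 unligated ones. Each pool of a group came from a different treatment. The spread behind the p-values therefore mixes differences between treatments with those between pools, and is not a spread between replicates. The labels do not say whether the same rats gave several tissues.

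Array medians before normalization ran from 13 to 62.2 on A, 8.1 to 47.2 on B and 14.5 to 53.3 on C. In L5 DRG, array B was dimmer in ligated pools (18.1 and 23) than in unligated pools (25.6 to 29.2). The signal ratio of the 3′ to the 5′ probe set of GAPDH, a sign of RNA integrity, was 1.60 to 7.38 in the nerve pools, 3.16 in the sham contralateral L4 DRG and 0.899 to 1.49 in all other pools. The highest were the naive (7.38) and sham (3.80) ipsilateral nerves. In unligated DRG, summed signals of 14 sensory neuron markers were 23116 to 23689, against 403 to 524 in nerve. Nerve pools also carried 19 skeletal muscle markers at 9573 to 32937, against 860.0 to 2206 in DRG. Signals below are MAS5 intensities, normalized by quantiles within a compartment for the ligation comparisons and over all unligated pools for the comparisons of tissues. The number of arrays limits the precision of every value, and probe sets are compared between samples, never with each other.

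Promoters are shown for members described in the results, since the start of transcription carries the TOP motif. Each line runs from 40 bases before to 15 bases after the start annotated by RefSeq on rat build GRCr8. Capitals mark a C followed by at least 6 bases that are all C or T, beginning within 10 bases of that start. Rps27 and Rpl22 appear with their paralogs Rps27l and Rpl22l1, and Rpl34 and Rpl37a as members past the test in both ligated ganglia.
Rps27 (chr2:177964592-177964646, minus strand): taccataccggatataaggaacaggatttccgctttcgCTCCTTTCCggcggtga
Rps27l (chr8:76443618-76443672, plus strand): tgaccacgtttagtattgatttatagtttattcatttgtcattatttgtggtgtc
Rpl22 (chr5:168117921-168117975, plus strand): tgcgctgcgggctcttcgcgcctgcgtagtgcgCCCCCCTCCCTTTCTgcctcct
Rpl22l1 (chr2:113683156-113683210, plus strand): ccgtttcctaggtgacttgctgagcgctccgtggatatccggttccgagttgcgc
Rpl34 (chr2:221962269-221962323, minus strand): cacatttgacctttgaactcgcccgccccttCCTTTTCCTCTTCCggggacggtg
Rpl37a (chr9:81748051-81748105, plus strand): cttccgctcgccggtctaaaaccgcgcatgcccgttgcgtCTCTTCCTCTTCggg

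A promoter was listed for 52 of the 61 genes. The pyrimidine run was present in 29 of 52 (55.8%), against 3603 of 33469 promoters of all genes (10.8%). For members the first promoter listed for each gene was taken. The 33469 are every promoter listed and are not limited to genes on the arrays, so the shares are not counted alike. Among the other motifs searched on both strands from 250 bases before to 50 after the start, the ETS motif CCGGAAG was in 13 of 52 (25%, all promoters 8.7%) and the YY1 motif AAGATGG in 8 (15.4%, all 7.0%). The TATA box TATAAA was in 7 (13.5%, all 14.2%) and the E-box CACGTG in 3 (5.8%, all 6.4%). CCGGAAG and AAGATGG can share the letters AAG, and a match describes letters, not a bound site. Of the 24 genes past the test in both ligated ganglia described next, 21 had a promoter and 10 of these had the run. Of the 14 genes past it in neither, 12 had a promoter and 6 had the run.

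The first question was whether ligation changed ribosomal protein transcripts in a ganglion with its own nerve tied, the ipsilateral L5 DRG. Both subunits rose together there. Of 97 probe sets tested, 53 were higher in the ligated pools and 0 were lower, standing for 40 of 59 genes. Among all 16746 probe sets tested, 6.75% were higher and 8.88% lower. The median log2 change of the 97 was 0.53 (quartiles 0.32 and 0.68), against -0.00 for all probe sets. In 77 of 97 (79.4%) both ligated pools lay above all 3 unligated ones, where 23.5% of all probe sets did, and in 0 both lay below, where 26% of all did. The test was limma's moderated test with Benjamini-Hochberg adjustment over all 3 arrays at a threshold of 0.05, here and below. The remaining 6 members did not pass the filter on low signals.

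Large-subunit members held 4 of the 8 largest rises past the test. Rpl36a, a protein near the tRNA exit site, had signals on array C of 676.4 in the naive, 702.0 in the naive GPN and 838 in the sham pool. Its ligated pools stood at 1579.7 (SNL) and 1474 (SNL with GPN). Both lay well above the unligated pools, a log2 change of 1.05 (SE 0.12, adjusted p = 0.00303). Rpl39, a short protein that lines the exit tunnel, had 674, 591 and 646 in unligated and 1181 and 1115 in ligated pools (log2 change 0.85, SE 0.10, adjusted p = 0.00359). Rpl17, which lies near the tunnel exit, was a weaker signal, at 56.2, 48.4 and 52.6 against 119 and 99.9 (log2 change 0.98, SE 0.15, adjusted p = 0.00668). These 3 genes showed tight unligated pools, with no overlap between the groups. Rpl34 rose on array B from 1208, 1037 and 1053 to 1875.7 in both ligated pools (log2 change 0.77, SE 0.10) and Rpl37a from 1875.7, 1774 and 1710.4 to 2558 and 2432 (0.48, SE 0.09). Both are brighter members whose groups lay apart. Rpl30 on array A gave the largest change (log2 1.06, SE 0.29) but only just passed, with an adjusted p of 0.0498. Its naive pool stood at 18.5, the naive GPN pool at 43.9 and the sham pool at 35.7, against 73.5 and 69.0 with ligation. Its array C probe set did not differ beyond the spread (log2 change -0.01, SE 0.19).

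Small-subunit and large-subunit members had like medians. Of 32 small-subunit probe sets 19 were higher (median 0.53), and of 63 large-subunit probe sets outside the stalk 32 were higher (median 0.53). Rps3, which forms part of the mRNA entry site and also serves in DNA repair, had 406, 366 and 481 in unligated and 935 and 773 in ligated pools on array B (log2 change 1.03, SE 0.15, adjusted p = 0.00629). Rps27, a zinc-finger protein of the small subunit, had 679.8 (naive), 554 (naive with GPN) and 579.6 (sham) against 1150.4 (SNL) and 1172 (SNL with GPN). The 2 ligated pools of Rps27 lay close together and apart from the rest (log2 change 0.94, SE 0.12, adjusted p = 0.00377). Rps24 rose from 83.9, 98.1 and 76.1 to 207 and 132 (log2 change 0.91, SE 0.21, adjusted p = 0.0275). Rps6, the protein phosphorylated by S6 kinase downstream of mTOR, rose on array C from 516, 533 and 569 to 1015 and 895 (log2 change 0.82, SE 0.11, adjusted p = 0.00473). The acidic stalk, which binds elongation factors, had 2 members measured. Rplp0, its base, changed by 0.38 (SE 0.09, adjusted p = 0.034) and Rplp1 by 0.53 (SE 0.09, adjusted p = 0.012), and both passed.

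**Figure D1:**
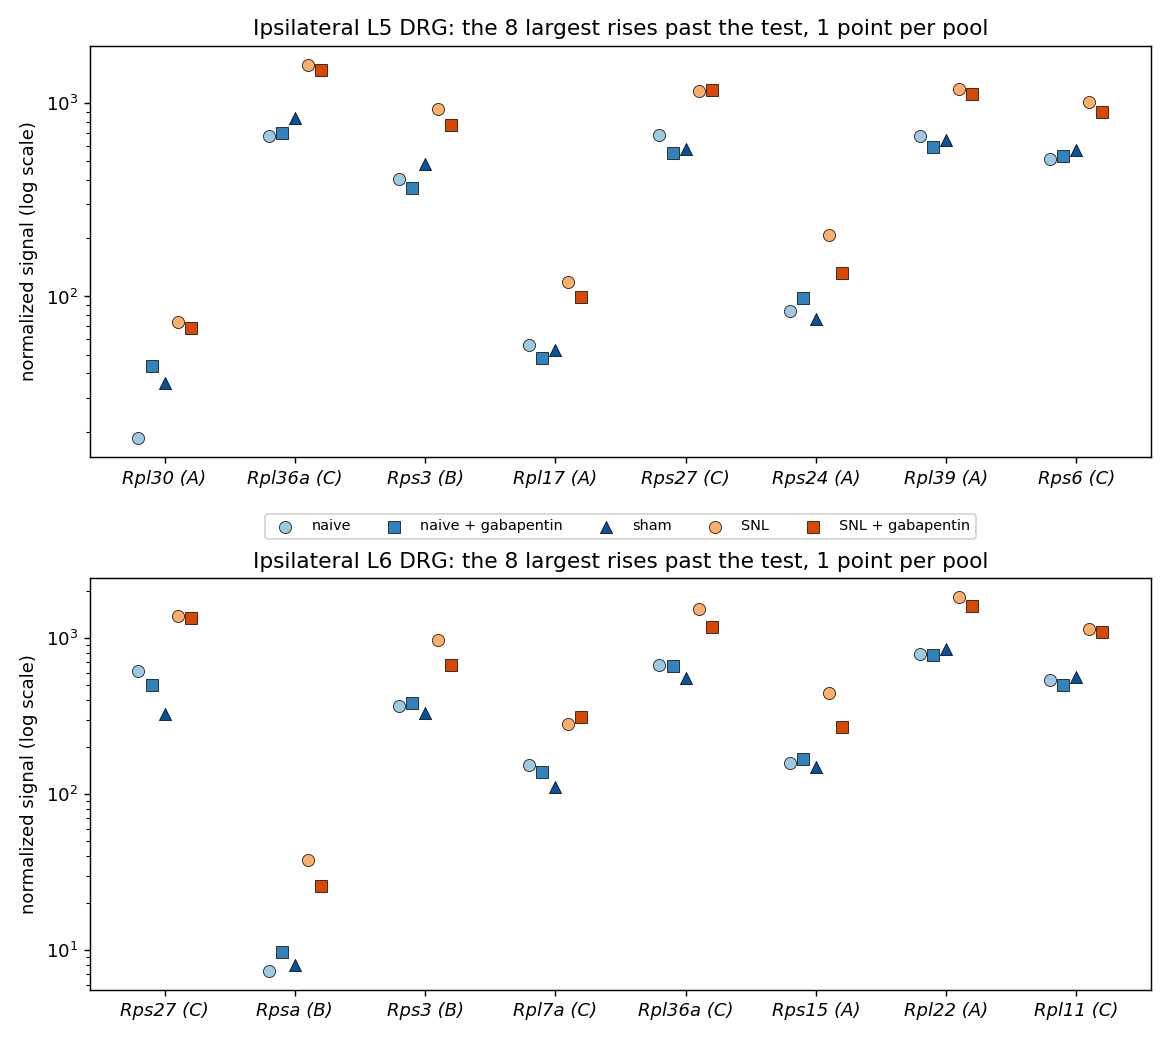
Normalized signal (log scale) of the 8 ribosomal protein probe sets with the largest rises past the test in ipsilateral L5 DRG (upper panel) and L6 DRG (lower panel), with the array in parentheses and 1 point per pool. The probe sets were picked for their rises in these same pools. That both ligated pools (orange) lie above the 3 unligated pools (blue) in every set is therefore a description. In L6, Rpsa on array B was tested only through its ligated pools. For Rps27 in L5 the ligated pools are at 1150.4 and 1172.

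Where a gene had several probe sets, they often shared a direction but not the call. Of 25 genes with several tested in L5, all were past the test in 6 genes, some in 13 and none in 6, and in 0 genes did calls differ in sign. Rps6 illustrates this, since its array C probe sets gave 0.82 (past the test) and 0.14 (SE 0.16, not past), the latter at signals of 31.9 to 41.3. Probe sets that the array design marks with a letter, mostly for sequence shared among transcripts, were higher in 23 of 38, and the unmarked ones in 30 of 59. The members bright enough to lie in the top 10% of probe sets numbered 61, of which 44 were higher, with a median change of 0.53. Other probe sets in that brightness class numbered 1614, of which 11% were higher, with a median change of -0.05.

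Not every member moved. Rpl3, which shapes the peptidyl transferase centre, differed by 0.21 (SE 0.12) and 0.05 (SE 0.11) in its 2 probe sets, and Rpl19 by 0.20 (SE 0.11), all with overlapping groups. Rps29 stood at the brightest signals, 2763 to 5032, and its 2 probe sets differed by 0.24 (SE 0.13) and 0.23 (SE 0.11) without passing. The largest differences of all fell outside the call because 1 pool stood apart. Rpl18 had 49.1 in the naive pool against 648 and 597 in the other unligated pools, and 983 and 1174 in ligated pools, so that its difference of 1.95 had an SE of 0.97. One Rpl35 probe set behaved alike, at 55.6, 633 and 712 against 991 and 943, while another for the same gene read 1026 in that naive pool and passed the test (log2 change 0.54, SE 0.13, adjusted p = 0.032). Both genes were named after their values were seen.

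The rise in L5 differed in size between alternatives. Counts under alternatives are given without the share of all probe sets past the test, here and below, unless stated. A loss of calls by the members therefore cannot be told from a loss over all probe sets. With the deposited scaling 6 probe sets passed and with median scaling 9, all higher; the all-probe-set median was then -0.24 and -0.09. Relative to that, the members' median was 0.56 and 0.41. Without the SNL pool 6 passed, without the naive GPN pool 21, without sham 31 and without SNL with GPN 32, and the median change over these lay between 0.41 and 0.57. The rank of the members on the deposited arrays needs no scaling. The median member lay at percentile 94.6 to 95.0 of its array in unligated L5 pools, and at 96.9 (SNL) and 96.6 (SNL with GPN) in ligated pools.

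Cell type markers and RNA integrity moved with this result. Summed signals of 14 sensory neuron markers were 24547 to 25458 in unligated and 13955 to 15608 in ligated L5 pools, and 12 of 14 fell. Those of 14 macrophage markers were 1037 to 1676 against 4870 to 5212, and 11 of 12 tested rose. The 8 fibroblast markers summed to 5792 to 7135 against 8988 to 12885, with 5 of 8 rising, and the 7 Schwann cell markers to 13325 to 16678 against 11995 to 15173, with 0 of 7 past the test. The 8 satellite glia and astrocyte markers summed to 1692 to 2009.7 against 1384 to 1483, with 2 of 7 tested lower, and the 19 muscle markers to 1205 to 5993 against 3764 to 11842, with 0 of 19 past the test and a median change of 1.49. No defining marker of these lists was at 0 in all pools. The GAPDH 3′ to 5′ ratio was 1.13 to 1.26 in unligated and 1.01 to 1.05 in ligated pools, and with this ratio as a covariate 0 of all 16746 probe sets passed, on 2 residual degrees of freedom per probe set. The part of cell composition and RNA integrity in the rise was not tested. In these bulk samples, a change in the number of cells of a type and a change in RNA per cell cannot be told apart.

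L6 DRG, whose nerve was also tied, carried the same direction. Of 97 members tested 40 were higher and 0 lower, from 31 genes, where 4.37% of all probe sets were higher and 4.22% lower. The median change was 0.69, against -0.00 for all. The groups did not overlap in 76 probe sets with ligated pools above (78.4%, all probe sets 21.6%) and in 1 with ligated pools below, an Rps15 probe set (all probe sets 20.6%). Rps27 again ranked among the largest, at 616, 499 and 328 in unligated and 1376 and 1349 in ligated pools (log2 change 1.54, SE 0.25, adjusted p = 0.011). The ligated pools of Rps27 lay far above the rest. Rpsa, which doubles as a laminin receptor, had 7.36, 9.68 and 8.0 against 37.7 and 25.8 on array B (difference 1.48). This probe set was above the filter on low signals in 0 of 3 unligated and 2 of 2 ligated pools, so it was tested only through the group where it is high, and its difference is a description. Without it 39 members were higher in L6, while in L5 0 of the 53 called had entered in this way. The brighter Rpsa probe set on array A rose from 659.9, 509.8 and 622 to 1386 and 1099 (1.05, SE 0.18).

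Rps3 had 368, 387 and 329 against 978 and 669 in L6 (log2 change 1.16, SE 0.20), and Rpl7a 153, 138 and 112 against 283 and 310 (1.12, SE 0.18). Rpl22, a large-subunit protein that also binds viral and cellular RNAs, had 791, 782 and 851 against 1829.8 and 1599 (1.08, SE 0.14, adjusted p = 0.005). Rpl36a changed from 669.6, 664 and 553 to 1542 and 1185 (1.10, SE 0.18), Rps15, which reaches the decoding centre, by 1.09 (SE 0.22) and Rpl11, a regulator of Mdm2 and p53, by 1.06 (SE 0.14), all past the test. Rpl34 (0.92, SE 0.15) and Rpl37a (0.91, SE 0.15) on array B passed as well. One member fell far from the rest without passing. Rpl13a on array A read 852, 943 and 1062 in unligated pools, 1624 in the SNL pool and 75.8 in the SNL GPN pool, so its difference of -1.39 had an SE of 1.01. Its other probe set on that array read 589 and 557 in those 2 ligated pools.

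Both ganglia shared many calls. Of the probe sets higher in L5, 29 (54.7%) were also higher in L6, which is 72.5% of those in L6, and they cover 24 genes. Over all probe sets, 502 were higher in both, 44.4% of those in L5 and 68% of those in L6. All 53 members called in L5 had a positive change in L6, as did 1067 of the 1115 probe sets of any gene called higher in L5 and tested in L6 (95.7%). The SNL pool stood above the SNL GPN pool in 46 of the 53 called in L5 and in 31 of the 40 called in L6, with 3 and 1 equal, which has no replicate check. The share of all probe sets called higher that had this order is not given. The order is therefore no result about the members or the drug. Without the SNL pool 1 member passed in L6, and that was lower; without naive 15 and without SNL with GPN 17 passed. With the deposited scaling 0 passed, where the all-probe-set median was -0.28, while the members' median relative to it was 0.71. Sensory neuron markers summed to 21261 to 22698 in unligated and 8615 to 10506 in ligated L6 pools and macrophage markers to 819 to 1210 against 4166 to 5560. The 8 fibroblast markers summed to 5327 to 5887 against 7650.1 to 8743, with 3 of 8 rising, and the GAPDH ratio was 1.21 to 1.49 in unligated and 1.08 to 1.10 in ligated pools. With that ratio as a covariate 2 members passed in L6. The part of these in the rise was not tested. The median member stood at percentile 94.9 to 95.2 in unligated and at 97.6 (SNL) and 96.8 (SNL with GPN) in ligated L6 pools.

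**Figure D2:**
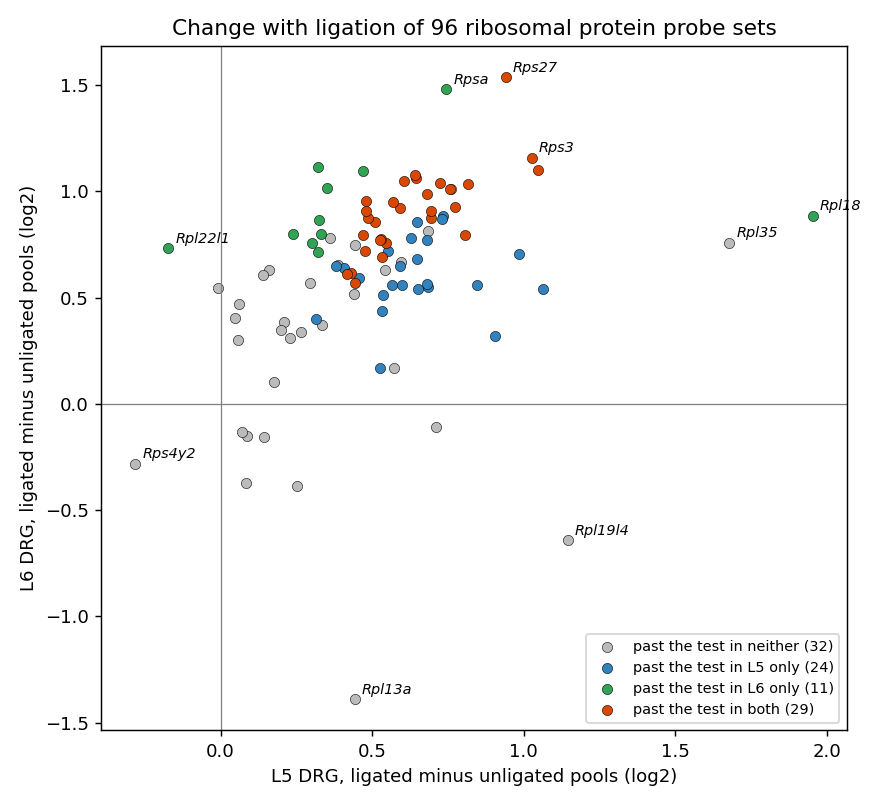
Log2 change with ligation of the 96 ribosomal protein probe sets tested in both ganglia, L5 DRG on the horizontal and L6 DRG on the vertical axis, coloured by the test in each. Most points lie above and to the right of 0, 29 past the test in both, 24 in L5 only and 11 in L6 only; Rpl13a lies below because of 1 pool.

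Paralogs of ribosomal proteins were measured beside their partners, and no test compared the change of one with that of the other. Rps27l, an Rps27 paralog induced by p53, rose in L5 from 235, 226 and 196 to 389 and 384 (log2 change 0.81, SE 0.12, adjusted p = 0.00713) and in L6 by 0.79 (SE 0.16, adjusted p = 0.024). Rpl22l1, which can replace Rpl22, had 253, 238 and 219 against 237 and 184 in L5 (difference -0.17, SE 0.14, adjusted p = 0.454), with overlapping groups. In L6 it stood at 147, 172 and 184 against 315 and 252 and passed (0.73, SE 0.18, adjusted p = 0.047). Whether Rpl22l1 differed between the ganglia was not tested. Rpl36al1 differed by 0.14 (SE 0.14) in L5 and 0.61 (SE 0.16) in L6 and passed in neither. The 3 Rpl7l1 probe sets differed by 0.26 (SE 0.16), 0.18 (SE 0.15) and 0.06 (SE 0.14) in L5, and Rps4y2 by -0.28 (SE 0.21), with no call. Rpl19l4 had a naive pool of 61.2 against 258 and 234 and did not pass in L5 (1.14, SE 0.54). Rpl3l, the form of Rpl3 found in heart and skeletal muscle, overlapped between groups in each probe set tested in these ganglia.

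Other genes of translation are given as counts, with no test of a list. Counting 1 probe set per gene, 38 of 59 ribosomal protein genes were higher in L5 (median 0.51), where 6.79% of all genes were higher and 9.48% lower. Of 7 other genes with TOP motifs 3 were higher (median 0.42), namely Vim, an intermediate filament gene (log2 change 0.84, SE 0.12), Naca, a chaperone at the tunnel exit (0.78, SE 0.11), and Rack1, a scaffold on the small subunit (0.63, SE 0.11). Vim rose in L5 from 2059, 1645 and 1995 to 3305 and 3478, with ligated pools clearly apart. Of 11 elongation factors only Eef1a1 was past the test, from 1088, 1048 and 1103 to 1788 and 1580 (0.64, SE 0.10). Of 35 initiation factors 4 were higher, among them Eif3e (0.63, SE 0.15) and Eif3f (0.62, SE 0.11), and 2 lower, Eif1b (-0.83, SE 0.14) and Eif4g3 (-0.56, SE 0.14). The median of that list was 0.06.

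In L5 the lists of ribosome production, the mitochondrial ribosome and growth signalling had calls near or below the shares of all genes. Those shares were 6.79% higher and 9.48% lower. Of 32 biogenesis factors 1 was higher in L5, Fbl, the methyltransferase of the nucleolus (0.55, SE 0.14), and it was also the 1 of 31 in L6 (1.11, SE 0.22). Of 17 genes of ribosomal RNA transcription 1 was higher, Polr1d (0.43, SE 0.12). Proteins of the mitochondrial ribosome, a separate particle, had 1 of 71 higher and 4 lower in L5, with a median of -0.20. Mrpl40 was higher (0.46, SE 0.13), and Mrpl38 (-0.80, SE 0.16) and Mrps30 (-0.71, SE 0.18) were among the lower. Of 19 genes of growth signalling 0 were higher in L5 and 2 lower, the mTOR subunit Mlst8 (-0.67, SE 0.13) and Larp1 (-0.46, SE 0.12). In L6 Myc, a transcription factor that drives ribosomal genes, rose from 22.4, 15.6 and 18.4 to 54.1 and 45.2 (1.18, SE 0.22), and Mlst8 fell by 1.01 (SE 0.18). Of the 7 other TOP genes 2 passed in L6, Vim (1.01, SE 0.19) and Rack1 (0.85, SE 0.15), with 0 of 11 elongation factors. Of all genes 4.76% were higher and 4.61% lower in L6. List medians in L6 were 0.56 for the other TOP genes and 0.27 for elongation factors. They were 0.21 for initiation factors and 0.71 for ribosomal protein genes, against 0.01 for all genes.

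In the compartments tested other than ipsilateral L5 and L6 DRG, no member passed for ligation. In ipsilateral L4 DRG, whose own nerve was left intact, 0 of 94 members passed, where 0.00597% of all probe sets were higher and 0.0358% lower, and 14 were higher at an unadjusted p under 0.05. The members' median change was 0.21, against -0.00 for all probe sets, and 88 of 94 changes were positive. Shares of all probe sets with a positive change, or at an unadjusted p under 0.05, are not given here or below. Such counts therefore show no excess of the members over all probe sets. The median member stood at percentile 95.8 to 95.9 in ligated and 94.4 to 95.3 in unligated pools, with GAPDH ratios of 1.12 to 1.16 against 1.29 to 1.34. Macrophage markers there summed to 1405 and 2294 in ligated and 975 to 1306 in unligated pools. Under the deposited scaling 15 members passed as higher, but all probe sets then shifted by 0.49 and the members' median relative to that was -0.30. A direct test of the ligation change in L5 against that in L4 called 0 of 93 members and 0% of all 16071 probe sets (limma), with 17 members higher and 2 lower at an unadjusted p under 0.05. The median difference was 0.25. A larger change in L5 than in L4 was therefore not shown.

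In ipsilateral sciatic nerve 0 of 99 members passed, against 2.25% of all probe sets higher and 2.62% lower, and the median change was 0.10. At an unadjusted p under 0.05, 7 were higher and 3 lower. Relative to all probe sets that median turned to -0.11 under the deposited and -0.04 under median scaling. Rps27 stood highest by adjusted p, with 948, 843 and 1018 in unligated and 1461 and 1376 in ligated nerves (0.60, SE 0.17, adjusted p = 0.1); both ligated nerves lay above the others. The ligation change in L5 exceeded that in nerve past the test in 2 of 97 members, both Rpl3l, and was below it in 0, where 0.96% and 0.748% of all probe sets did so; the median difference was 0.35. In cord and brain 0 of 94 (median 0.05) and 0 of 93 (median -0.06) passed, where 0% of all probe sets did in either. At an unadjusted p under 0.05 there were 1 higher in cord and 2 lower in brain. On the contralateral side the 4 compartments testable gave 0 of 382 (19 higher and 6 lower at an unadjusted p under 0.05), with medians from -0.13 to 0.09. In L5 0.00612% and in L6 0.0608% of all probe sets were higher there, in L6 0.0122% were lower, and in L4 and cord 0% passed. Contralateral nerve had 1 ligated pool and was not tested.

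**Figure D3:**
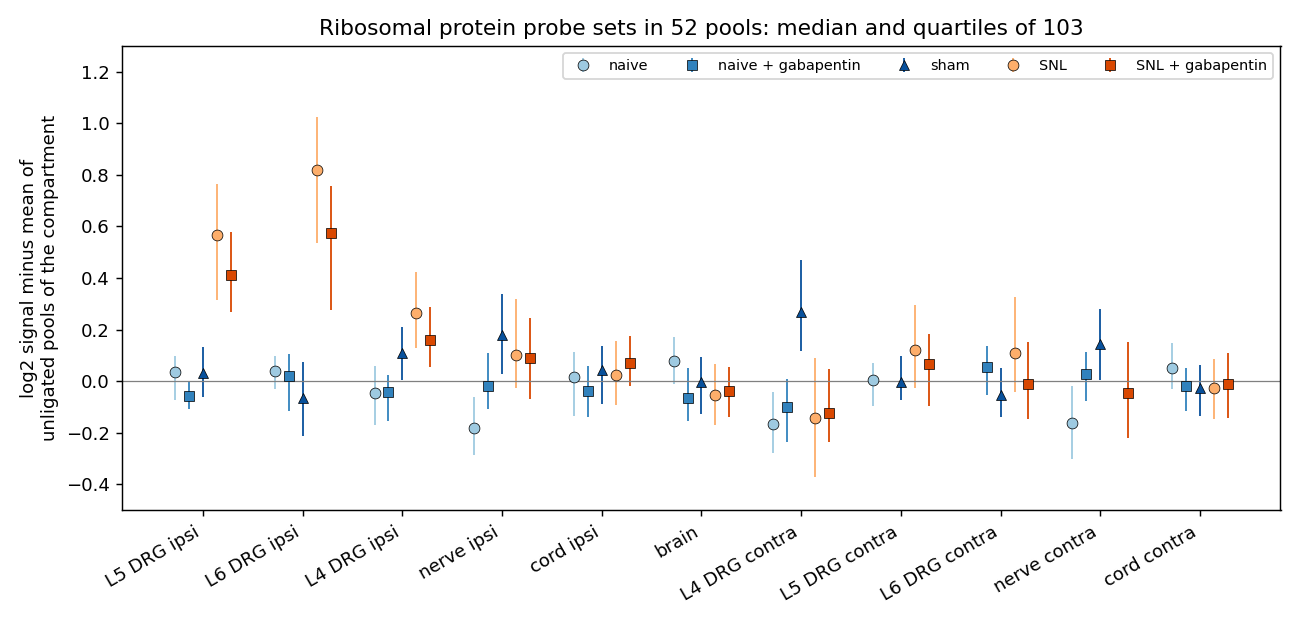
Median (points) and quartiles (bars) over 103 ribosomal protein probe sets of the log2 signal minus the mean of the unligated pools of the compartment, for all 52 pools. The ligated pools stand at 0.57 and 0.41 in ipsilateral L5 and 0.82 and 0.57 in L6 DRG, and among unligated pools the sham contralateral L4 DRG stands highest, at 0.27.

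Gabapentin was tested on the mean of each pool over the 8 compartments in which all 5 treatments were measured, with ligation as a covariate. It called 0 of 96 members and 0% of all 16203 probe sets. At an unadjusted p under 0.05 there were 0 higher and 5 lower members, and the median difference of GPN from vehicle was -0.06, with a range from -0.37 to 0.20. All other lists of translation genes had 0 calls as well.

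Sciatic nerve and DRG were compared in unligated pools. Here, averaged within a treatment to 3 values per tissue, 70 of 100 members were higher in sciatic nerve than in DRG and 3 were lower, where 26.5% of all probe sets were higher and 24.1% lower. The median difference was 0.65, against 0.00 for all. Rps27 had 985, 1342 and 1170.5 in nerve (naive, naive with GPN and sham) and 465, 451 and 388 in DRG, a difference of 1.40 (SE 0.20, adjusted p = 5.27e-05). Rpl22 had 1778, 2206 and 3005 against 824, 846 and 1019.8, a difference of 1.35 (SE 0.16, adjusted p = 1.36e-05). Rps27l gave the narrowest spread, at 542, 552 and 586 against 195, 209.6 and 195 (1.46, SE 0.10, adjusted p = 5.24e-08). For all 3 genes each nerve value exceeded each DRG value, and the 3 DRG values lay close together.

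An Rpl35 probe set (1.39, SE 0.18) and Rps4x-ps9, a pseudogene of Rps4x by name (1.25, SE 0.16), completed the largest rises with Rps2-ps1 and Rpl3l. Rps2-ps1, a pseudogene of Rps2, read 23.8, 21.1 and 35.0 in nerve but 2.80, 2.51 and 3.37 in DRG, below the pseudocount of 5.8, so its difference of 1.88 understates the ratio. It was above the filter on low signals in 3 of 3 nerve and 0 of 3 DRG values. It and 3 others tested only through nerve, Rpl3l on array C, Rpsa on array B and Rps24 on array C, are descriptions, and 66 members were higher without them. Rpl3l had 244, 81.9 and 78.8 in nerve and 24.3, 16.5 and 15.9 in DRG on array A (2.33, SE 0.40) and a like difference on array C (2.07). Its naive nerve was highest, where the muscle markers summed to 32937, against 9573 and 11836 in the other treatments. Another Rpl3l probe set on array A overlapped between the tissues (0.50, SE 0.27). The part of muscle tissue was not tested. Of the stalk genes Rplp1 was higher in nerve (1.13, SE 0.11) and Rplp0 differed by 0.20 (SE 0.13).

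The 3 members lower in nerve were Rpl7l1 on array B (48.3, 49.99 and 43.2 in DRG, 28.6, 29.4 and 24.9 in nerve; -0.69, SE 0.18), 1 of 3 Rps15 probe sets on array A (-0.59, SE 0.15) and an Rpl23a probe set (-0.43, SE 0.15). For each the groups did not overlap. Probe sets of 1 gene disagreed in sign here for 2 genes. An Rpl7l1 probe set on array C was higher in nerve, at 144 ± 28.6 against 69.0 ± 1.78 (SD, n = 3 each; 0.98, SE 0.16), and a second Rps15 probe set was higher as well (0.64, SE 0.10). With the deposited scaling the split was 39 higher and 7 lower, where the median of all probe sets was -0.51, and the members' median relative to it was 0.87. Without the naive pools, which include the nerve of GAPDH ratio 7.38, 70 were higher and 4 lower. The nerve pools that remained had ratios of 1.60 to 3.80. The DRG pools that remained had 1.13 to 1.49, apart from the sham contralateral L4 DRG at 3.16. All 8 fibroblast, 12 of 13 macrophage and 17 of 18 muscle markers tested were also higher in nerve, and 14 of 14 sensory neuron markers lower. The part of cell composition and RNA integrity in the difference was not tested.

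**Figure D4:**
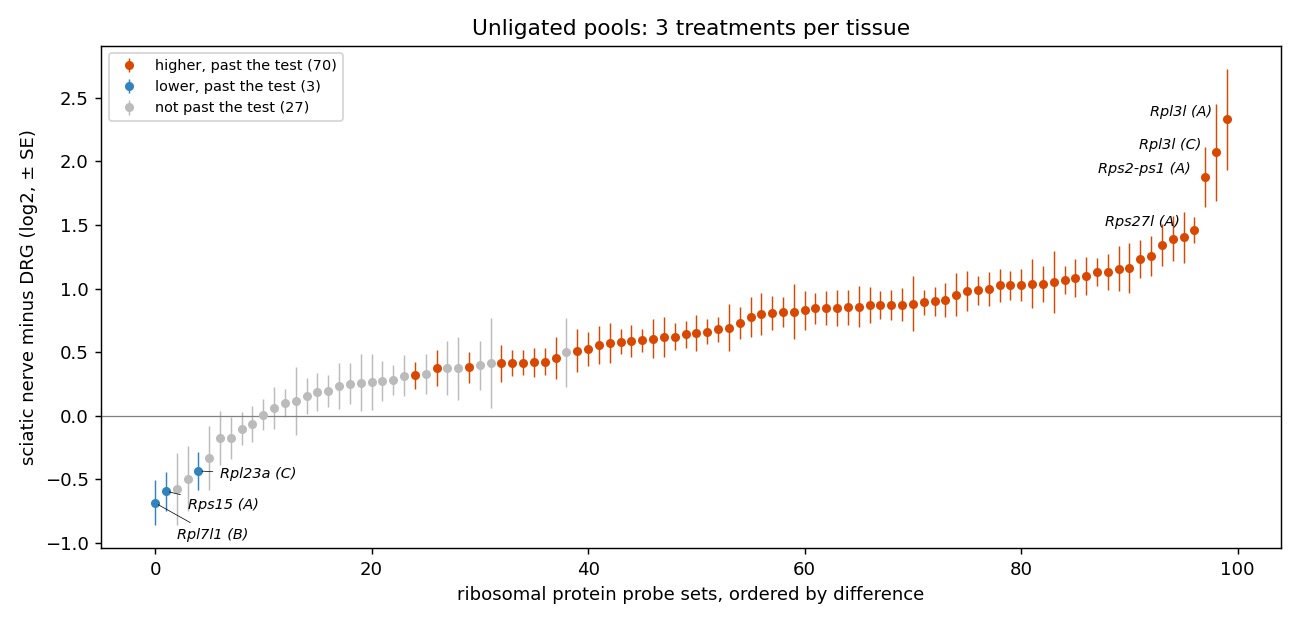
Difference in log2 signal between sciatic nerve and DRG, with SE, for the 100 ribosomal protein probe sets tested in unligated pools (3 values per tissue), ordered by size. Of these 70 are higher and 3 lower past the test; Rpl3l, at 2.33 on array A, stands at the upper end and Rpl7l1, at -0.69 on array B, at the lower.

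Other TOP genes followed the same order, with 6 of 7 higher in nerve than in DRG (median 0.80, all genes 29.7% higher and 23.6% lower), led by Vim (1.38, SE 0.20) and Rack1 (1.26, SE 0.12). Initiation factors, 10 higher and 8 lower of 35, lay near these shares of all genes. Of 71 mitochondrial ribosome genes 9 were higher and 20 lower, the latter also near the share of all genes. Eef1a2, the elongation factor of neurons and muscle, was lower in nerve by 2.94 on the log2 scale (difference -2.94, SE 0.33), while Eef1a1, its widely expressed counterpart, was higher (0.45, SE 0.14). Eif4a2 (-1.66, SE 0.18) and Eif4g1 (-1.12, SE 0.16), parts of the cap-binding complex, were also lower.

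Spinal cord against DRG gave fewer calls. Of 100 members 7 were higher in cord and 1 lower, where 14% of all probe sets were higher and 14.9% lower. The median difference was 0.15, against 0.00 for all probe sets, and 77 of 100 were positive. Whether cord lay closer to DRG than nerve did was not tested. Rpl19l4, a copy related to Rpl19, had 463, 381 and 560.5 in cord and 108, 204 and 234 in DRG (1.39, SE 0.26, adjusted p = 0.001), with each cord value above each DRG value. Rps3a (0.54, SE 0.14), 2 of 4 Rpl21 probe sets (0.49, SE 0.16, and 0.44, SE 0.11), Rpl26 (0.45, SE 0.13), Rpl28 (0.37, SE 0.11) and Rps19 (0.33, SE 0.12) were higher. Rpl41, the smallest ribosomal protein, was lower (-0.49, SE 0.15). Rpl28 and Rps19 turned negative under median scaling, where 1 member was higher and 2 lower. Without the naive pools 2 members passed, as they did without the naive GPN pools.

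Between brain and cord 0 members were higher and 4 lower in brain, where 10.6% of all probe sets were higher and 11.3% lower. Rps27l had 92.3, 79.1 and 80.9 in brain and 184, 169 and 157 in cord (-0.97, SE 0.10, adjusted p = 1.18e-05), with no overlap. Rpl30 on array A read 30.4, 6.15 and 5.25 against 48.8, 38.8 and 32.2 (-1.42, SE 0.35), so brain values lay near the pseudocount. An Rpl7a probe set on array C (-0.59, SE 0.13) and Rps4y2 (-0.65) were the others; Rps4y2 was above the filter in 3 of 3 cord and 0 of 3 brain values and is a description. Without the naive GPN pools 2 passed.

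Across the 11 compartments most members kept to a common pattern. Each probe set's mean log2 value over unligated pools was correlated with the median of the other members over the 11 compartments. The points share pools, arrays and normalization, and the correlations are a description. The median correlation was 0.86, with 78 of 103 above 0.5, 62 above 0.8 and 13 below 0. The 5 least alike were probe sets of Rpl7l1 on array B (-0.81), Rps2-ps1 (-0.80), Rpl36a on array B (-0.66), Rpl23a (-0.65) and Rps15 (-0.64). That Rps2-ps1 probe set was above the 40th percentile of its array in 0 of 52 pools, whereas 86 members passed this level in all pools. Each of Rpl7l1 (0.92), Rps2-ps1 (0.93), Rpl36a (0.96) and Rps15 (0.94) had another probe set that followed the common pattern closely. The other Rpl23a probe set did not (-0.41). Rpl7l1 on array C (-0.03), Rpl36a on array B (-0.20) and Rps15 on array A (-0.41) each had a further probe set that did not. The further Rpl36a probe set was above the 40th percentile in 0 pools. The Rps2-ps1 probe set at 0.93 was above this level in 7 of 52 pools. Its mean signals in unligated pools were 33.8 and 22.9 in nerve and 1.96 to 5.78 in the other compartments.

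Among the paralogs, Rps27l rose from 162 to 239.7 in the DRG compartments to 515 and 572 in the 2 nerve compartments and was lowest in brain, at 82.5 (mean signals of unligated pools after 1 normalization of all pools). Rps27 had its highest values in nerve too. Rpl22l1 stayed between 154 and 258 throughout. On its steeper array A probe set Rpl3l had 120.5 and 147 in nerve and 9.82 to 34.0 elsewhere. Rps4y2 had 16.6 in brain and 24.6 to 33.8 in the other compartments.

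**Figure D5:**
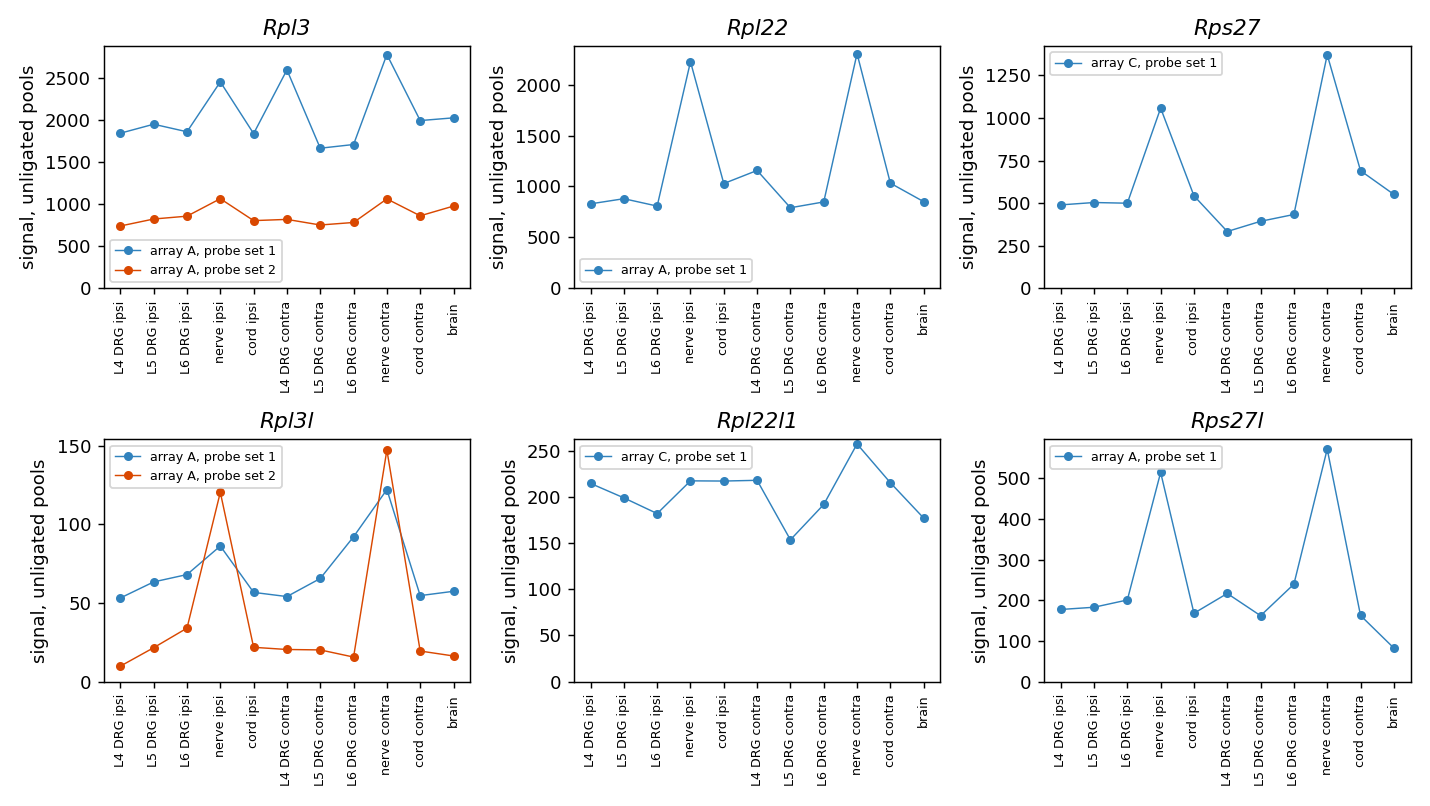
Mean normalized signal of unligated pools in 11 compartments for Rpl3, Rpl22 and Rps27 (upper row) and for their paralogs Rpl3l, Rpl22l1 and Rps27l (lower row), 1 line per probe set of the array named, with the array A probe sets for Rpl3l; axes start at 0 and differ between panels. Rps27l stands at 515 and 572 in nerve and 82.5 in brain, and Rpl22l1 lies between 154 and 258.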

How the data were processed

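Each of 156 arrays held 1 array type of 1 of 52 RNA pools. The deposited values are linear probe set intensity, made with MAS5 per the submitters' processing notes; no version, scaling target or detection call was found in the labels. MAS5 sets the average brightness of whole arrays, so array medians that differ up to several-fold move every probe set together. Array sets were therefore quantile normalized within each comparison. Values were taken as log2(signal + pseudocount), with the 20th percentile of a set as pseudocount (5.8 for A, 4.5 for B, 6.2 for C), so fold changes of weak genes are understated. Probe sets above the 40th percentile of their array in at least 2 pools were tested with limma 3.58.1 (lmFit, eBayes with trend) in R 4.3.3, two-sided, and adjusted over all 3 arrays. The code was tested on simulated data. Genes were named from GEO's platform annotation, with symbols updated through Entrez identifiers for 18122 probe sets; 177 control probe sets were left out, and 7633 had no symbol and 391 several. Promoters are from RefSeq (GRCr8).

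The members and gene lists were chosen with earlier results of these data known. Named are up to 8 members with the largest rise and fall per comparison, those against the majority, paralogs, those least like the rest, genes whose probe sets disagree in sign, and up to 4 members per list. Alternatives were median scaling and the deposited values without further normalization, called the deposited scaling. Others were another pseudocount, no filter, 1 probe set per gene, 1 spread over compartments and the GAPDH ratio as a covariate. Treatment as a block, ipsilateral compartments alone, and leaving out each treatment were also run.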

Additional observations from a re-analysis of the deposited data

Results flagged for a closer look

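Rpl3l is the form of Rpl3 found in skeletal and heart muscle. Its difference between ligated and unligated pools was not alike in L5 DRG and sciatic nerve. The difference between the changes was 2.30 on the log2 scale on array A (SE 0.31, adjusted p = 0.018) and 1.70 on array C (SE 0.32, adjusted p = 0.0494), by limma with Benjamini-Hochberg adjustment. These were the only 2 of 97 members to pass that test, where 0.96% of all probe sets were higher. Rpl3l on array A read 144, 63.2 and 62.5 in unligated and 9.96 (SNL) and 49.6 (SNL with GPN) in ligated nerves, and 35.9, 20.4 and 18.6 against 25.5 and 70.4 in L5 DRG. The 19 muscle markers summed to 21662, 11991 and 9805 in the unligated and 1025 and 9421 in the ligated nerves, and to 5993, 2249.7 and 1205 against 3764 and 11842 in L5 DRG. The part of muscle tissue in the Rpl3l difference was not tested. A second probe set of Rpl3l on array A did not pass (0.86, SE 0.25, adjusted p = 0.132). Without sham, SNL or SNL with GPN 0 members passed.

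The 52 probe sets that name a ribosomal protein gene together with other genes stood outside the comparisons. In L5 DRG 28 of 48 tested were higher with ligation and 0 lower (median 0.53), where 6.75% of all probe sets were higher and 8.88% lower. In L6 DRG 31 of 48 were higher and 0 lower (median 0.88), where 4.37% and 4.22% of all were.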

How the results depend on the processing

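Of 142 alternative counts of members past the test, 104 equalled the main count or stayed within 1.5 times it. They include comparisons with a main count of 0, where an alternative of 0 counts as equal. These are ligation in L4 DRG, nerve, cord, brain and the contralateral side, L5 against L4, and gabapentin. The total is therefore no measure of how stable the main counts of 53 in L5 and 40 in L6 were. The counts that follow lack the share of all probe sets past the test, so they do not separate members from the whole array. With the deposited scaling the counts were 6 in L5, 0 in L6, 15 in L4, 1 (lower) in nerve, 3 on the contralateral side (1 higher, 2 lower), 11 for the L5 to L4 difference (1 higher, 10 lower, where all probe sets shifted by -0.81), 1 for L5 against nerve, 46 for nerve against DRG and 4 for cord against DRG. Median scaling gave 9 in L5 and 3 for cord against DRG. No filter gave 33 in L5, 25 in L6 and 1 for L5 against nerve, where more probe sets were tested, and pseudocount 1 gave 1 there. With 1 probe set per gene there were 0 for L5 against nerve and 44 for nerve against DRG. A spread shared over compartments gave 63 in L6, 1 in L4 and 5 in nerve. The GAPDH covariate left 0 in L5 and 2 in L6. Leaving out 1 treatment gave 6 to 41 in L5, 1 to 39 in L6, 0 to 1 in nerve and for L5 against nerve, 55 to 74 for nerve against DRG, 2 to 7 for cord against DRG and 2 to 5 for brain against cord; where this left 1 ligated pool, it is assumed to vary like the others. Under the deposited scaling the sign turned for Rpl6 (-0.031), Rplp1 (-0.16), Rps28 (-0.046) and an Rpl7 probe set (-0.047) in L5, all on array B, and for Rpl27 (-0.12), Rpl6 (-0.013) and Rps16 (-0.19) in nerve against DRG. Median scaling turned Rpl28 (-0.11) and Rps19 (-0.16) in cord against DRG. Beyond the number of probe sets and pools, the cause was not tested. No paired analysis was possible because the labels carry no replicate numbers; treatment served as a block between tissues (74 past for nerve against DRG, 12 for cord against DRG, 5 for brain against cord), and the L5 to L4 and L5 to nerve differences were taken within a treatment. With 2 ligated pools per compartment, weak signals near background have little precision.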
